A study of Homo sapiens with 10 samples.

Results

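The genes described here are PTGER3 and 9 other genes that make prostanoids or receive their signal, chosen by name as PTGER1, PTGER2, PTGER3, PTGER4, PTGIR, TBXA2R, TBXAS1, PTGS1, PTGS2 and PTGES. Every probe that is no control and whose transcript accession carried one of these symbols in the RefSeq gene table was taken, which gave 16 of the 42405 probes of the array for 10 of the 19102 genes that have a matched symbol on it, and each probe is shown apart. They were measured on 10 single-colour (Cy3) Agilent SurePrint G3 arrays in MEG-01, an established human cell line of megakaryoblastic leukemia. Cells of 5 arrays had been nucleofected with the miR-1225-3p precursor and cells of the other 5 with a scrambled negative control precursor, each at 200 nM, and total RNA was taken after 24 hours. Both groups are the same line in the same culture medium, and the labels name no other change in either. The titles call the 5 samples of each group biological replicates, while a second label describes the scrambled samples as without treatment. The study's question for these arrays was which mRNAs change with an excess of miR-1225-3p, a microRNA of platelets.

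Prostanoids are short-lived lipid signals made from arachidonic acid. A cyclooxygenase, PTGS1 or PTGS2, first makes prostaglandin H2, and terminal synthases then turn it into single products, thromboxane A2 by TBXAS1 and prostaglandin E2 by PTGES. Platelets, which megakaryocytes shed, make thromboxane mainly through PTGS1, the cyclooxygenase that aspirin blocks there. The products act on receptors of the G protein-coupled class. Thromboxane activates platelets through TBXA2R, prostacyclin restrains them through PTGIR by raising cyclic AMP, and prostaglandin E2 has receptors with opposed effects, of which PTGER3 lowers cyclic AMP and PTGER2 and PTGER4 raise it. PTGER3 is known for alternative splicing at its 3' end, which gives receptors with different tails and mRNAs with different ends.

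The mature microRNA that was introduced is shown because it defines the treated group, 5′ to 3′ as RefSeq gives it, with the seed (bases 2 to 8, the part that pairs with target mRNAs) in capitals. It lies at chr16:2090195-2090216 on the minus strand of GRCh38.p14, within the PKD1 gene. No other mature human microRNA of the RefSeq table has this seed, so it has no family there, and the mature strand from the other arm of the same hairpin, at chr16:2090263-2090284, has a different one.
hsa-miR-1225-3p: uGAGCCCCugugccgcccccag
hsa-miR-1225-5p: gUGGGUACggcccagugggggg

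Signals are given as log2 of the processed signal after cyclic loess normalization across the 10 arrays, so that a difference of 1 is a doubling. A probe counted as well above background on an array when the scanner software said so for at least 50% of its spots, and it was tested when this held in one group or the other on 3 or more of 5 arrays. Of the 16 prostanoid probes 13 were tested, standing for 8 of the 10 genes, and 11 of these were well above background on all 10 arrays. Groups were compared with limma, and p-values were adjusted by Benjamini-Hochberg over all 20648 probes tested. The number of arrays limits the precision, and a level is never set against that of another probe, since probes differ in how well they bind.

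The miR-1225-3p arrays were not alike. On the first principal component, which held 69.8% of the variance, miR-1225-3p replicates 1 to 4 scored between -147 and -57.2 and the scrambled arrays between 57.1 and 82.9. Replicate 5 of miR-1225-3p, at 63.8, stood within that scrambled range. For 11 of the 13 prostanoid probes tested this array lay nearer the scrambled mean than the mean of the other miR-1225-3p arrays, and for 8 it lay within the scrambled range. It was kept, each change of a prostanoid probe is given with and without it, and so are the pathway calls that it altered. Because this array was singled out from these same values, larger changes and lower p-values without it follow in part from that choice. They are no independent evidence. Of the 2 slides, slide 1 carried miR-1225-3p replicates 1 and 2 and scrambled replicates 1, 3 and 5, and slide 2 the other arrays. Of 13 megakaryocytic marker genes with a probe (TBXAS1 among them), 7 were well above background on all 10 arrays, among them ITGA2B, ITGB3 and GATA1, while PF4 was not well above background on any. The summed signal of this list was 6778 to 8603 on the linear scale on the miR-1225-3p arrays and 10027 to 11449 on the scrambled arrays. Most of this sum came from its brightest gene, NFE2, with a mean log2 signal of 12.39 with miR-1225-3p and 12.82 with the scrambled precursor. In this list 4 genes (ITGA2B, GATA2, FLI1 and NFE2) passed the test, all lower. Of the marker lists of other cell types, the epithelial sum was apart in the other direction (3289 to 7378 against 2603 to 3284), and the sums of the erythroid, monocyte, T cell, B cell and fibroblast lists overlapped. The epithelial sum is in the main the signal of EPCAM, since KRT19 was well above background on 2 arrays and CDH1 on 0. In the lists of other cell types EPCAM (0.90, adjusted p = 0.0161 by limma) was higher and HBE1 (-1.71, adjusted p = 0.0169 by limma) was lower. CD3E was higher as well (1.96, adjusted p = 0.0328 by limma), but it was well above background on only 4 of the 10 arrays. Its mean on the scrambled arrays was 3.39, near background, so that the size of its change is no measure of a rise. In bulk RNA, fewer cells of a type and less RNA per cell cannot be told apart, and the part of these markers in the prostanoid results was not tested.

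With miR-1225-3p, 5 of the 13 prostanoid probes passed the test, 4 lower and 1 higher, in the 3 genes PTGS1, PTGER1 and PTGER3. This share has to be read against the whole array, on which 35.0% of probes passed, 18.7% lower and 16.3% higher. The median log2 fold change was -0.57 over the 13 probes and -0.09 over all probes tested. Without miR-1225-3p replicate 5, 7 of the 13 passed, 6 lower and 1 higher, against 55.8% of all probes (30.5% lower and 25.3% higher). The 6 include TBXAS1, which was tested only through the scrambled arrays. Its call rests on signals at background and is no measure of a fall. The balance of calls over the whole array depended on the scaling: 3869 probes were lower and 3356 higher with cyclic loess, and 3262 lower and 5132 higher when each array was scaled to its 75th percentile, which moved the median of all probes from -0.09 to 0.11 and that of the 13 from -0.57 to -0.31. With that scaling 3 of the 13 passed, 2 lower and 1 higher.

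**Figure D1:**
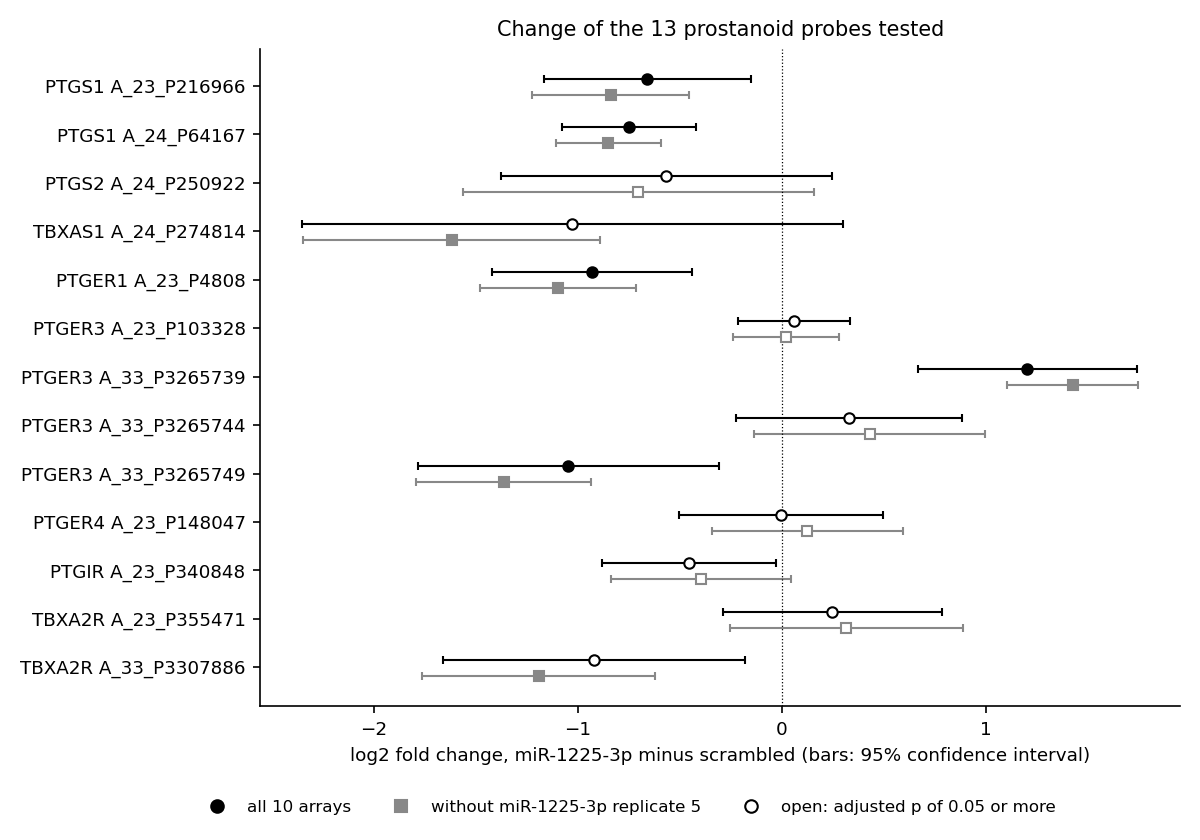
Log2 fold change of each of the 13 prostanoid probes tested (x axis, miR-1225-3p minus scrambled), with all 10 arrays (black circles) and without miR-1225-3p replicate 5 (grey squares). Bars are 95% confidence intervals and filled symbols have an adjusted p under 0.05 by limma: 5 are filled with all arrays and 7 without replicate 5, and a single PTGER3 probe stands to the right of 0 among them. The filled square of TBXAS1 rests on signals at background and is no measure of a fall.

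Of the synthesis enzymes, PTGS1, the constitutive cyclooxygenase and the source of platelet thromboxane, was lower on both of its probes, which name the same RefSeq transcript (NM_000962). Probe A_24_P64167 read 8.40, 8.69, 8.57, 8.79 and 9.12 on miR-1225-3p replicates 1 to 5 and 9.44, 9.44, 9.55, 9.37 and 9.52 on scrambled replicates 1 to 5. Every miR-1225-3p array lay below every scrambled array, and this was the only prostanoid probe without overlap, 1 of 13 against 12.6% of all probes. Its log2 fold change was -0.75 ± 0.15 (SE, n = 5 per group), or 1.68-fold lower (adjusted p = 0.0146 by limma). The two-sided exact permutation p was 0.00794, the smallest that 5 arrays against 5 allow. Of the 13 exact permutation tests of prostanoid probes 6 had a p under 0.05, and after Benjamini-Hochberg adjustment over the 13 exact tests 0 did (lowest 0.0688). Without replicate 5 the log2 fold change was -0.85 (adjusted p = 0.000332 by limma).

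The other PTGS1 probe, A_23_P216966, read 9.13, 9.18, 9.07, 8.71 and 9.93 on the miR-1225-3p arrays and 9.55, 9.57, 10.02, 10.09 and 10.08 on the scrambled arrays. The groups overlapped through miR-1225-3p replicate 5 alone, and the scrambled arrays themselves fell into a lower pair and a higher trio. Its change on the log2 scale was -0.66 ± 0.23 (SE, n = 5 per group; adjusted p = 0.0470 by limma), and -0.84 without replicate 5 (adjusted p = 0.00283 by limma). This probe lay close to the threshold. It did not pass when any array other than miR-1225-3p replicate 5 was left out (adjusted p between 0.0577 and 0.101), nor with the slide as a block (0.0655), whereas A_24_P64167 passed in each of those. With scaling to the 75th percentile the changes were -0.31 for A_23_P216966 (adjusted p = 0.218 by limma) and -0.44 for A_24_P64167 (adjusted p = 0.0497 by limma).

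RefSeq lists 2 start sites for PTGS1, and the 250 bases before the first, chr9:122370283-122370532 on the plus strand of GRCh38.p14, are shown because PTGS1 is the enzyme that was lower on both probes. Capitals mark the GC box (GGGCGG on either strand) and the letters AGATAA, which with TGATAA, on either strand, were searched as the GATA site. SP factors bind the former and GATA factors the latter, and no matches of the 2 kinds overlapped. The GC box begins 58 bases and the GATA site 178 bases upstream of this start. The window before the other start holds 1 GC box, 202 bases upstream, and 0 GATA matches. GC boxes occur in 42.6% and these GATA letters in 14.6% of the 35116 RefSeq promoter windows of this length. The match is of letters only.
PTGS1 promoter: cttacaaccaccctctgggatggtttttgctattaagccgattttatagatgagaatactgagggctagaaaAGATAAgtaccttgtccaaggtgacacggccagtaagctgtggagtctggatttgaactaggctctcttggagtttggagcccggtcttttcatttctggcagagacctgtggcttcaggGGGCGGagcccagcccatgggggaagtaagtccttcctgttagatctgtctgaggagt

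PTGS2, the cyclooxygenase that inflammatory signals induce, did not pass the test. Its probe, A_24_P250922, which is printed 10 times on the array, read 7.97, 6.92, 6.14, 5.82 and 7.40 on the miR-1225-3p arrays and 7.28, 7.53, 7.51, 7.47 and 7.30 on the scrambled arrays. The scrambled arrays lay close together and the miR-1225-3p arrays ranged widely to both sides of them, replicate 1 above all of them and replicates 2 to 4 below. The SD was 0.89 with miR-1225-3p and 0.12 with the scrambled precursor. On the log2 scale the change was -0.57, with a 95% confidence interval of -1.38 to 0.25 (adjusted p = 0.233 by limma), and -0.70 without replicate 5 (adjusted p = 0.143 by limma). Within slide 1 it was 0.09 and within slide 2 it was -1.05, neither past the threshold (adjusted p = 0.863 and 0.501 by limma).

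TBXAS1, thromboxane synthase, gave a dim signal, well above background on 2 arrays with miR-1225-3p and 3 with the scrambled precursor. Probe A_24_P274814 read 4.27, 3.21, 3.37, 2.96 and 6.40 on the miR-1225-3p arrays and 4.21, 5.13, 5.18, 5.31 and 5.51 on the scrambled arrays. Replicate 5 was the highest of all 10 arrays, and replicates 2 to 4 lay below every scrambled array. The probe was tested only because 3 scrambled arrays were well above background. The log2 fold change was -1.03 ± 0.60 (SE, n = 5 per group; adjusted p = 0.188 by limma), and -1.62 without replicate 5 (adjusted p = 0.00255 by limma). In the latter just 1 of 4 miR-1225-3p arrays was well above background, so that its size and its p rest on signals at background and are no measure of a fall. With the normexp background correction, which lifts dim signals, the change was -0.17.

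PTGES, the inducible prostaglandin E synthase, was well above background on 1 of the 10 arrays, miR-1225-3p replicate 1, at 4.88 and in 1 of its 2 spots there. The other 9 arrays read 2.53 to 3.05, and no fold is given.

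**Figure D2:**
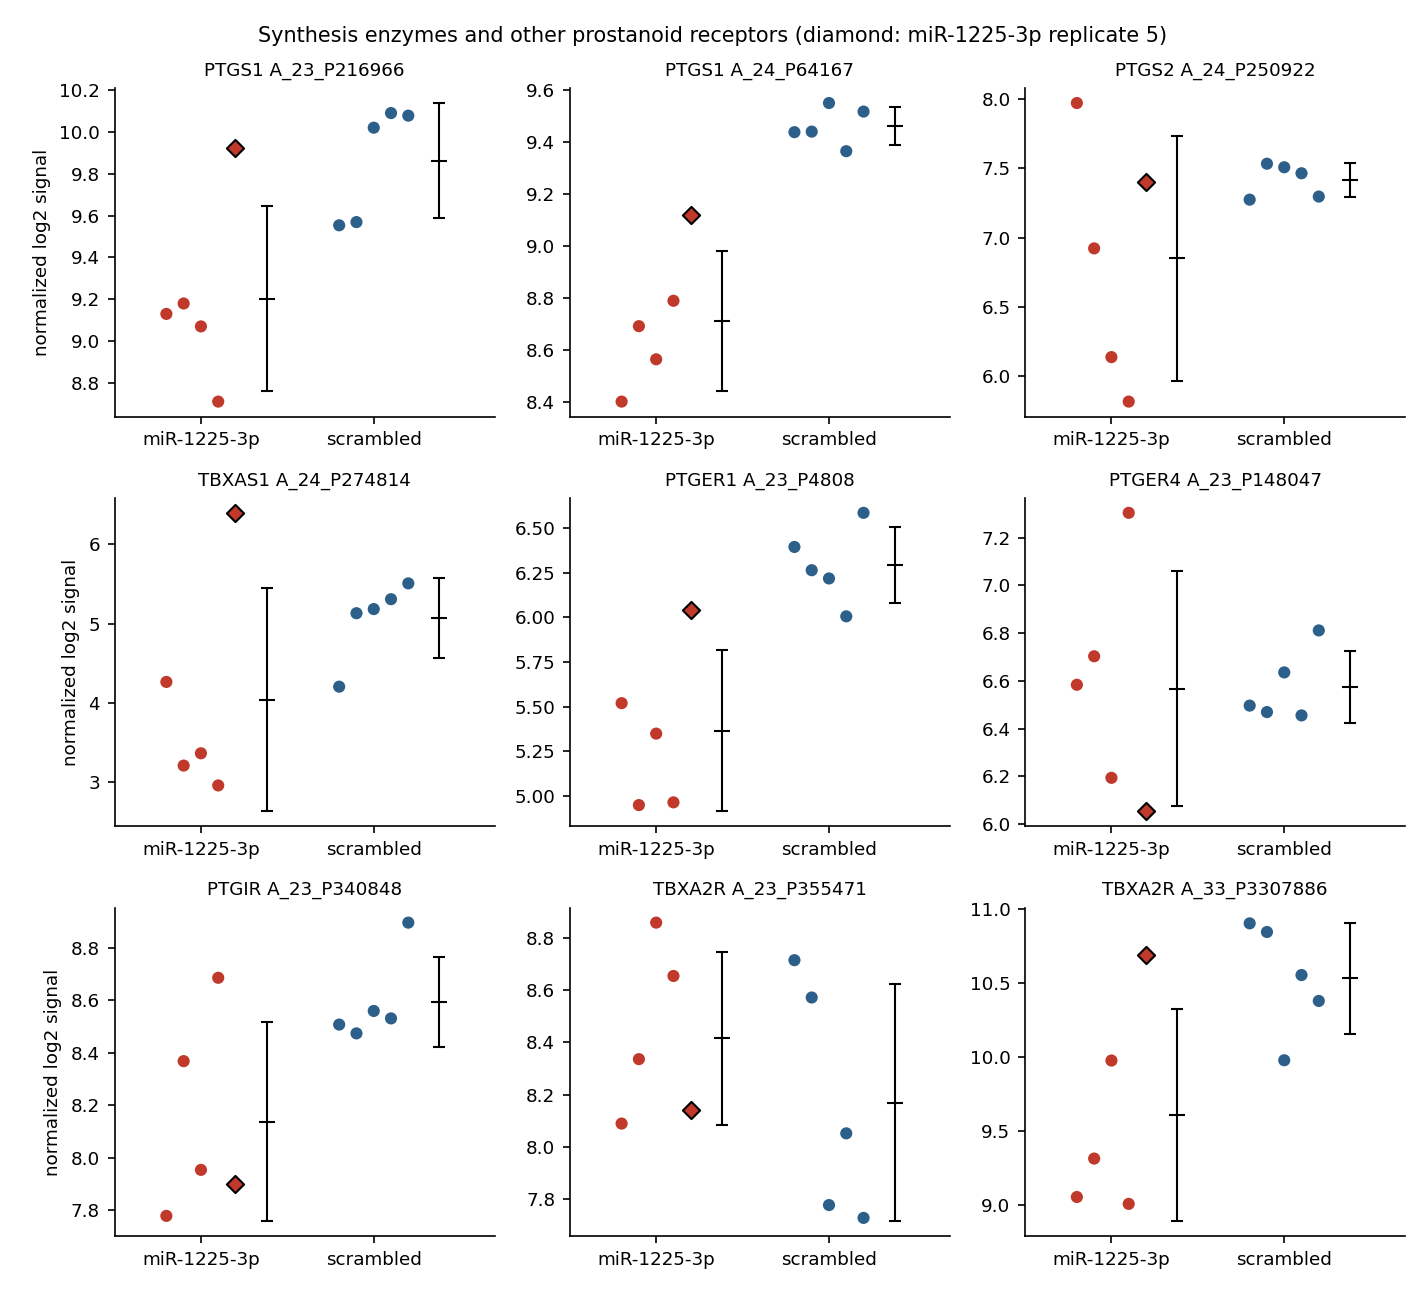
Normalized log2 signal of the 9 probes of the genes other than PTGER3 that were tested, each dot 1 array, in red for miR-1225-3p (diamond for replicate 5) and in blue for scrambled, with the mean and SD of 5 arrays beside them. The y axes differ between panels. Only in the panel of PTGS1 probe A_24_P64167 are the 2 groups apart, and the diamond is the miR-1225-3p array highest in 5 of the 9 panels.

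Of the receptors, PTGER3, the prostaglandin E2 receptor that lowers cyclic AMP, gave different changes on its 4 probes. Each probe names another RefSeq transcript of the gene, which has 7 curated mRNAs in the table, and all 4 were well above background on all 10 arrays. Probe A_33_P3265739 (NM_198719) read 9.44, 9.31, 9.56, 9.38 and 8.31 on the miR-1225-3p arrays and 7.90, 7.74, 8.16, 7.87 and 8.32 on the scrambled arrays. Replicates 1 to 4 all lay above the scrambled arrays and replicate 5 lay among them. The log2 fold change was 1.20 ± 0.24 (SE, n = 5 per group), or 2.30-fold higher (adjusted p = 0.0146 by limma; two-sided exact permutation p = 0.0159), and 1.42 without replicate 5 (adjusted p = 9.62e-05 by limma). This was the only prostanoid probe that passed as higher. It was 1.25 within slide 1 and 1.28 within slide 2, where 0 of the 20648 probes passed the adjusted threshold by limma and 1395 had an unadjusted p under 0.05.

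Probe A_33_P3265749 (NM_198717) fell. It read 10.43, 9.86, 9.98, 9.46 and 11.51 on the miR-1225-3p arrays and 11.30, 11.13, 11.34, 11.18 and 11.54 on the scrambled arrays. Replicates 1 to 4 lay below every scrambled array and replicate 5 lay within their range. This was a log2 fold change of -1.05 ± 0.33 (SE, n = 5 per group; adjusted p = 0.0359 by limma), or 2.07-fold lower, and -1.36 without replicate 5 (adjusted p = 0.000401 by limma). The direction held in 25 of 25 alternative settings and the call in 9 of them. The change was -0.59 with scaling to the 75th percentile, and the adjusted p lay between 0.0549 and 0.0863 when any array other than miR-1225-3p replicate 5 was left out.

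The other 2 PTGER3 probes did not pass. Probe A_33_P3265744 (NM_198715) read 6.96, 7.79, 7.34, 8.30 and 7.09 on the miR-1225-3p arrays and 6.98, 7.03, 7.36, 7.10 and 7.38 on the scrambled arrays. Its 2 highest arrays were of miR-1225-3p, and so was its lowest. It had a log2 fold change of 0.33, with a 95% confidence interval of -0.23 to 0.88 (adjusted p = 0.309 by limma), and 0.43 without replicate 5 (adjusted p = 0.174 by limma). Probe A_23_P103328 (NM_198714) had the narrowest interval of the 13, with a log2 fold change of 0.06 and a 95% confidence interval of -0.22 to 0.33 (adjusted p = 0.720 by limma), and 0.018 without replicate 5 (adjusted p = 0.904 by limma). It read 9.20, 9.08, 9.07, 8.90 and 9.26 on the miR-1225-3p arrays and 9.06, 9.00, 9.23, 9.04 and 8.88 on the scrambled arrays, fully intermixed.

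**Figure D3:**
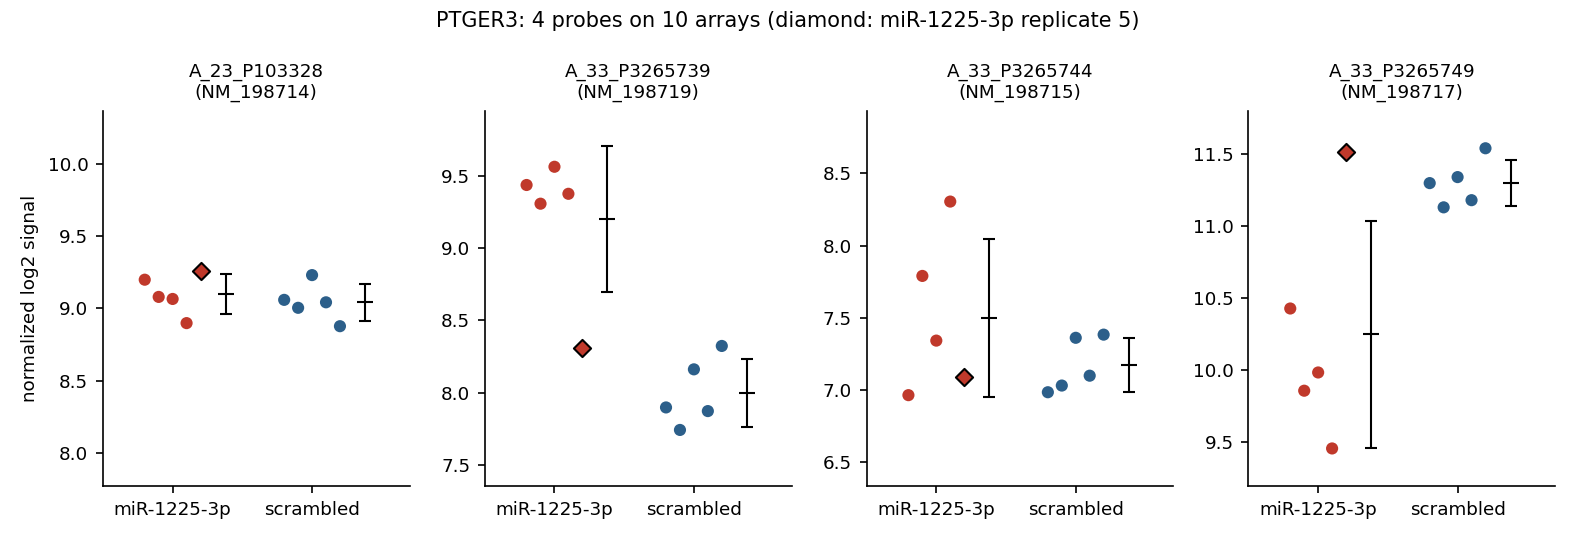
Normalized log2 signal of the 4 PTGER3 probes, each panel spanning the same number of log2 units, with 1 dot per array in red for miR-1225-3p (diamond for replicate 5) and in blue for scrambled, and the mean and SD of 5 arrays. Replicates 1 to 4 of miR-1225-3p lie above the scrambled arrays for A_33_P3265739 and below them for A_33_P3265749, and the diamond lies with the scrambled arrays in both.

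Whether the PTGER3 probes moved differently was tested on the difference between probes within each array, which compares changes and not levels. Against A_33_P3265749, the change of A_33_P3265739 was greater by 2.25 on the log2 scale (two-sided exact permutation p = 0.0159, 5 arrays per group), that of A_33_P3265744 by 1.37 (exact p = 0.0476) and that of A_23_P103328 by 1.10 (exact p = 0.0397). After Benjamini-Hochberg adjustment over these 3 pairs the exact permutation p was 0.0476 for each. All 3 missed the threshold when scrambled replicate 1, 2, 4 or 5 was left out (adjusted exact permutation p between 0.0595 and 0.0873), and all 3 passed without miR-1225-3p replicate 5 (0.00794, with differences of 2.79, 1.79 and 1.38). On values with no normalization between arrays the differences were 2.05, 1.02 and 0.96 (adjusted exact permutation p = 0.0595, 0.0794 and 0.0595). That these probes disagree was known when the test was chosen, so it is no independent evidence, and which mRNA ends each probe detects in these cells was not tested.

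The genes whose levels ran most like those of the PTGER3 probes over the 10 arrays are a description of the same split. Among 10504 probes that carry the symbol of another gene and were well above background on every array, the 5 genes closest to A_33_P3265739 were EIF1AX, HSPA5, PRIM1, EIF2B1 and RABEPK, with Pearson's r from 0.991 to 0.994. Those closest to A_33_P3265749 were SETD5, OXA1L, TUBB8, TAGLN2 and RTN1, with r from 0.996 to 0.997. The 10 arrays fall into 2 clusters here, with miR-1225-3p replicate 5 on the scrambled side, so that any pair of probes that follow this split has a high r.

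PTGER1, the prostaglandin E2 receptor that raises calcium, was lower. Probe A_23_P4808 read 5.52, 4.95, 5.35, 4.96 and 6.04 on the miR-1225-3p arrays and 6.39, 6.26, 6.22, 6.01 and 6.58 on the scrambled arrays. The groups met only where replicate 5 stood just above the lowest scrambled array. The log2 fold change was -0.93 ± 0.22 (SE, n = 5 per group; adjusted p = 0.0175 by limma), or 1.90-fold lower, and -1.10 without replicate 5 (adjusted p = 0.000674 by limma). The signal was dim and missed this mark on 1 miR-1225-3p array, and with the normexp background correction the change was smaller at -0.31 (adjusted p = 0.0331 by limma).

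The 250 bases before the PTGER1 start, chr19:14475355-14475604 on the minus strand of GRCh38.p14, are shown beside those of PTGS1 as the other gene that was lower on every probe tested. They hold 4 GC boxes, in capitals, and no GATA letters. Of the 8 prostanoid genes with a RefSeq window, 6 held a GC box, and PTGS2 and TBXAS1 held none; PTGER3 and PTGIR had no window in the table.
PTGER1 promoter: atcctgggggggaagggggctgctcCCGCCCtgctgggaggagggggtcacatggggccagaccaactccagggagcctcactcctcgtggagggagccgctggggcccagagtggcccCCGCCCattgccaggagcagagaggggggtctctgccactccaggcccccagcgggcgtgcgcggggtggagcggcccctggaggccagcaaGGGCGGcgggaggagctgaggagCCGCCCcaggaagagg

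The receptors that raise cyclic AMP did not pass. PTGER4 (A_23_P148047) read 6.58, 6.70, 6.19, 7.30 and 6.05 on the miR-1225-3p arrays and 6.50, 6.47, 6.64, 6.46 and 6.81 on the scrambled arrays. The means were equal to 2 decimals at 6.57, the miR-1225-3p arrays spread on both sides of the scrambled arrays, and the 95% confidence interval of the log2 fold change ran from -0.51 to 0.49 (adjusted p = 0.984 by limma). Without replicate 5 the change was 0.12 (adjusted p = 0.634 by limma). PTGIR (A_23_P340848), the prostacyclin receptor, read 7.78, 8.37, 7.95, 8.69 and 7.90 on the miR-1225-3p arrays and 8.51, 8.47, 8.56, 8.53 and 8.90 on the scrambled arrays. Here replicate 5 lay with the lower miR-1225-3p arrays, and replicate 4 was the one above some of the scrambled arrays. The log2 fold change was -0.46, with a 95% confidence interval of -0.88 to -0.03 (adjusted p = 0.0831 by limma), and -0.40 without replicate 5 (adjusted p = 0.110 by limma). PTGER2 was well above background only on scrambled replicate 5, with signals of 2.61 to 3.61 over all 10, and no fold is given.

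TBXA2R, the thromboxane receptor, had 3 probes that did not behave alike, none of which passed. A_33_P3307886 (NM_001060) read 9.05, 9.31, 9.98, 9.01 and 10.69 on the miR-1225-3p arrays and 10.90, 10.84, 9.98, 10.55 and 10.38 on the scrambled arrays. The log2 fold change was -0.92 ± 0.33 (SE, n = 5 per group; adjusted p = 0.0536 by limma), and without replicate 5, the highest miR-1225-3p array, it was -1.19 (adjusted p = 0.00352 by limma). A_23_P355471 (NM_201636), for the other curated mRNA of the gene, read 8.09, 8.34, 8.86, 8.65 and 8.14 on the miR-1225-3p arrays and 8.71, 8.57, 7.78, 8.05 and 7.73 on the scrambled arrays. These overlapped over most of their range, with a log2 fold change of 0.25 and a 95% confidence interval of -0.29 to 0.78 (adjusted p = 0.428 by limma), and 0.32 without replicate 5 (adjusted p = 0.313 by limma). The third, A_23_P90357, which names NM_001060 as well, was not well above background on any array, so that it gives no check on A_33_P3307886.

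Around these genes, 9 lists of the pathway held 71 other genes, 48 of which had a probe that was tested. Each was taken by its tested probe of highest mean signal. Of the 48, 16 passed, 5 higher and 11 lower, which is 33.3%, near the 36.9% of all 11995 genes with a symbol that passed (18.2% higher and 18.7% lower). Their median change was -0.14 on the log2 scale, against -0.04 for all genes. Without miR-1225-3p replicate 5, 27 of the 48 passed, 12 higher and 15 lower, against 58.0% of all genes (29.1% higher and 28.9% lower). These were the 16 and 11 more, and each of the 16 had a larger change without that array, between -2.88 and 1.14. That array was singled out from these data, so the larger changes follow in part from the choice. With scaling to the 75th percentile 17 passed, 9 higher and 8 lower, against 43.5% of all genes (29.0% higher and 14.4% lower).

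Upstream of the cyclooxygenases, 2 of 4 tested genes that free arachidonate were lower and none was higher by limma, at an unadjusted p under 0.05 either. That is 50% of a short list, against 36.9% of all genes (18.7% lower). PLA2G4A, the cytosolic phospholipase that releases arachidonate from membranes, had a log2 fold change of -2.32 ± 0.73 (SE, n = 5 per group; adjusted p = 0.0349 by limma) and stood well above background on all 5 scrambled arrays and 3 of the others. MGLL, which releases it from an endocannabinoid, had -1.49 ± 0.44 (SE, n = 5 per group; adjusted p = 0.0302 by limma). Of 6 other prostanoid synthases none passed by limma, and 1, HPGDS, which makes prostaglandin D2, had an unadjusted p under 0.05, at 0.68 (adjusted p = 0.0581). Without replicate 5, 3 of the 6 passed by limma, where 58.0% of all genes did. These were HPGDS at 0.91, PTGES2 at -1.58 and AKR1B1 at -0.76 (adjusted p = 0.000921, 0.0164 and 0.0382 by limma). PTGES2 was dim, well above background on 2 arrays with miR-1225-3p and 3 with the scrambled precursor. It was tested only through the scrambled arrays, so that its call follows in part from how probes were kept. Of 4 tested genes of transport and breakdown, ABCC4, which exports prostaglandins, fell by 0.78 on the log2 scale (adjusted p = 0.0152 by limma). HPGD, which inactivates prostaglandin E2, was at 0.21 (adjusted p = 0.288 by limma). PTGR2, which breaks prostaglandins down further, passed only without replicate 5 (0.91, adjusted p = 0.0398 by limma). In the lipoxygenase branch, which uses the same substrate for leukotrienes, 1 of 4 passed, or 25%. This was ALOX5, higher by 0.73 (adjusted p = 0.0198 by limma), from a dim signal. With all arrays LTA4H, which makes leukotriene B4, was at 0.33 on its brighter probe (adjusted p = 0.0583 by limma). Its dimmer probe was at -0.72 (adjusted p = 0.0899 by limma). Without replicate 5 the brighter LTA4H probe passed (0.40, adjusted p = 0.00808 by limma). The other prostanoid receptors, PTGDR, PTGDR2 and PTGFR, had no tested probe. PTGFRN, listed with them as a partner of the prostaglandin F receptor, was at 0.34 (adjusted p = 0.416 by limma) and, without replicate 5, at 0.63 (adjusted p = 0.0322 by limma).

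Downstream of the receptors, 3 of 9 G protein alpha subunits passed, or 33.3%, all of them lower, against the 36.9% of all genes. GNA11, which couples receptors to calcium release, was at -2.29, but it was tested only through the scrambled arrays, with 2 of the 5 miR-1225-3p arrays well above background, so that its call follows in part from how probes were kept. GNA12 was at -0.85 and GNAS, which stimulates adenylyl cyclase, at -0.68 (for the 3 in this order, adjusted p = 0.0154, 0.0160 and 0.0212 by limma). GNAI1, GNAI2 and GNAI3, of the inhibitory class to which PTGER3 couples, did not pass (-0.38, -0.18 and 0.21), and without replicate 5 GNAI3 did (0.32, adjusted p = 0.0439 by limma). GNA13 differed by probe, with -0.09 on its brighter probe (adjusted p = 0.541 by limma) and -2.99 on a dimmer one (adjusted p = 0.0358 by limma). Of 6 adenylyl cyclases 3 passed, or 50%, against the same 36.9% of all genes. ADCY3 and ADCY7 rose by 0.77 and 0.41 and ADCY6 fell by 2.10 (adjusted p = 0.0145, 0.0485 and 0.0317 by limma). Without replicate 5 ADCY4 passed as well (-0.59, adjusted p = 0.0428 by limma).

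Among 10 cyclic AMP effectors and phosphodiesterases 3 passed, or 30%, against 36.9% of all genes. PRKAR2B, a regulatory subunit of protein kinase A, rose by 0.93 and CREB1, a transcription factor that this kinase activates, by 0.61 (adjusted p = 0.0236 and 0.0348 by limma). PRKACA, a catalytic subunit of the kinase, fell by 2.33 (adjusted p = 0.0207 by limma), with 3 of the 5 miR-1225-3p arrays well above background. PRKACB, the other catalytic subunit tested, was at -0.48 on its brighter probe (adjusted p = 0.203 by limma) and at 0.52 on a dimmer one (adjusted p = 0.0335 by limma). Without replicate 5 the brighter PRKACB probe (-0.66, adjusted p = 0.0494 by limma) and PRKAR1A (0.48, adjusted p = 0.0171 by limma) passed too. Of 4 genes that switch receptors off 3 passed, all lower, which is 75% of a short list, against 36.9% of all genes (18.7% lower). They were the arrestin ARRB2 at -1.24 and the receptor kinases GRK2 at -0.68 and GRK6 at -0.50 (adjusted p = 0.0172, 0.0191 and 0.0480 by limma). The kinase GRK3 passed without replicate 5, higher at 0.88 (adjusted p = 0.0110 by limma). Of the genes that passed and had 2 tested probes, GNAS and GRK6 passed on both, lower each time. GNA12 (-0.60, adjusted p = 0.131 by limma) and PRKAR2B (0.31, adjusted p = 0.0761 by limma) did not on the dimmer probe. GNA11, ADCY6, PLA2G4A and PRKACA, the 4 with the largest changes, were all lower and all dim with miR-1225-3p.

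**Figure D4:**
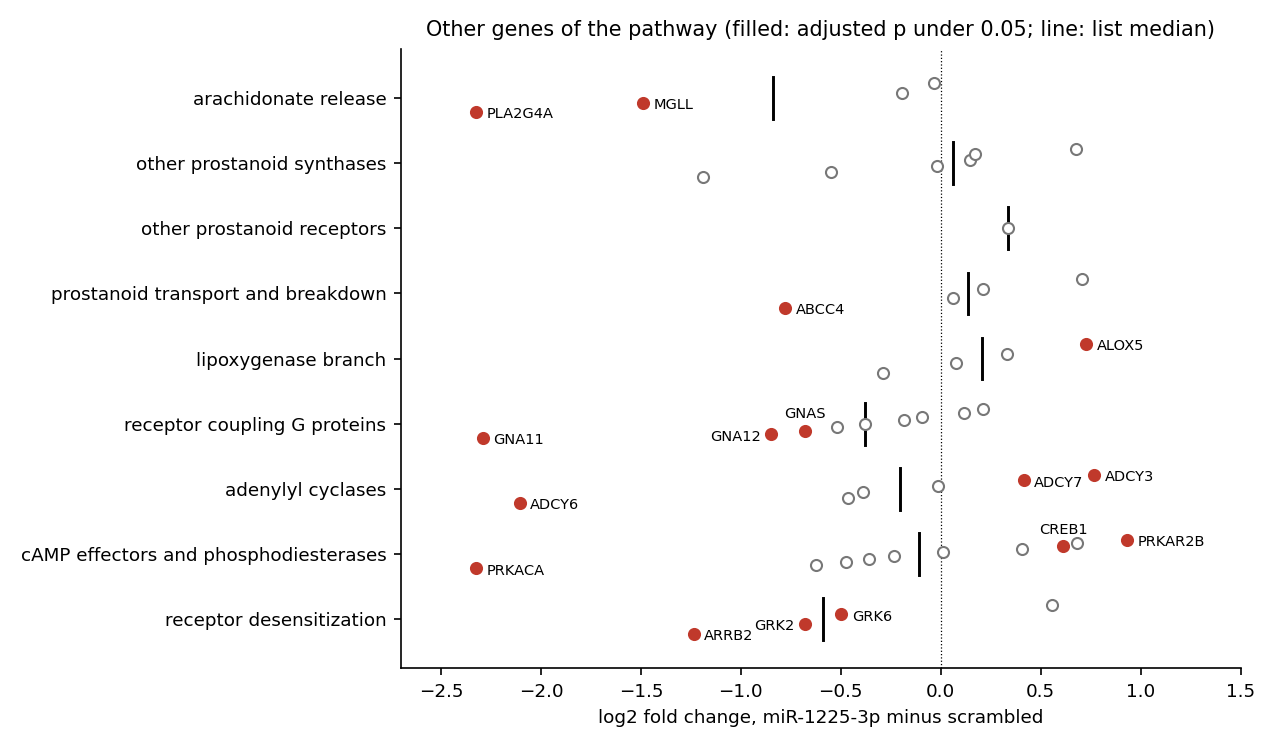
Log2 fold change (x axis, miR-1225-3p minus scrambled) of the 48 other pathway genes tested, by list. Each dot is 1 gene by its brightest tested probe, filled and named where the adjusted p was under 0.05 by limma (16 genes, 11 of them left of 0), and the black line is the list median.

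The calls for the prostanoid probes differed in how far they depended on the setting. Over 25 alternatives of normalization, background correction, filter, test, block and arrays left out (24 for PTGER1 and TBXAS1), PTGER3 probe A_33_P3265739 passed in 22, PTGS1 probe A_24_P64167 in 22 and PTGER1 in 21, always in the direction reported. PTGER3 probe A_33_P3265749 passed in 9 and PTGS1 probe A_23_P216966 in 7, also without a change of direction. Of the probes that did not pass in the reported comparison, TBXA2R probe A_33_P3307886 passed in 8, all of them lower, and the other 7 in at most 2. PTGER3 probe A_23_P103328 and TBXA2R probe A_23_P355471 passed in 0 of 25, as did PTGER4, by limma or by the methods' t-test, whose unadjusted p was under 0.05 for 7 of the 13 probes.

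**Figure D5:**
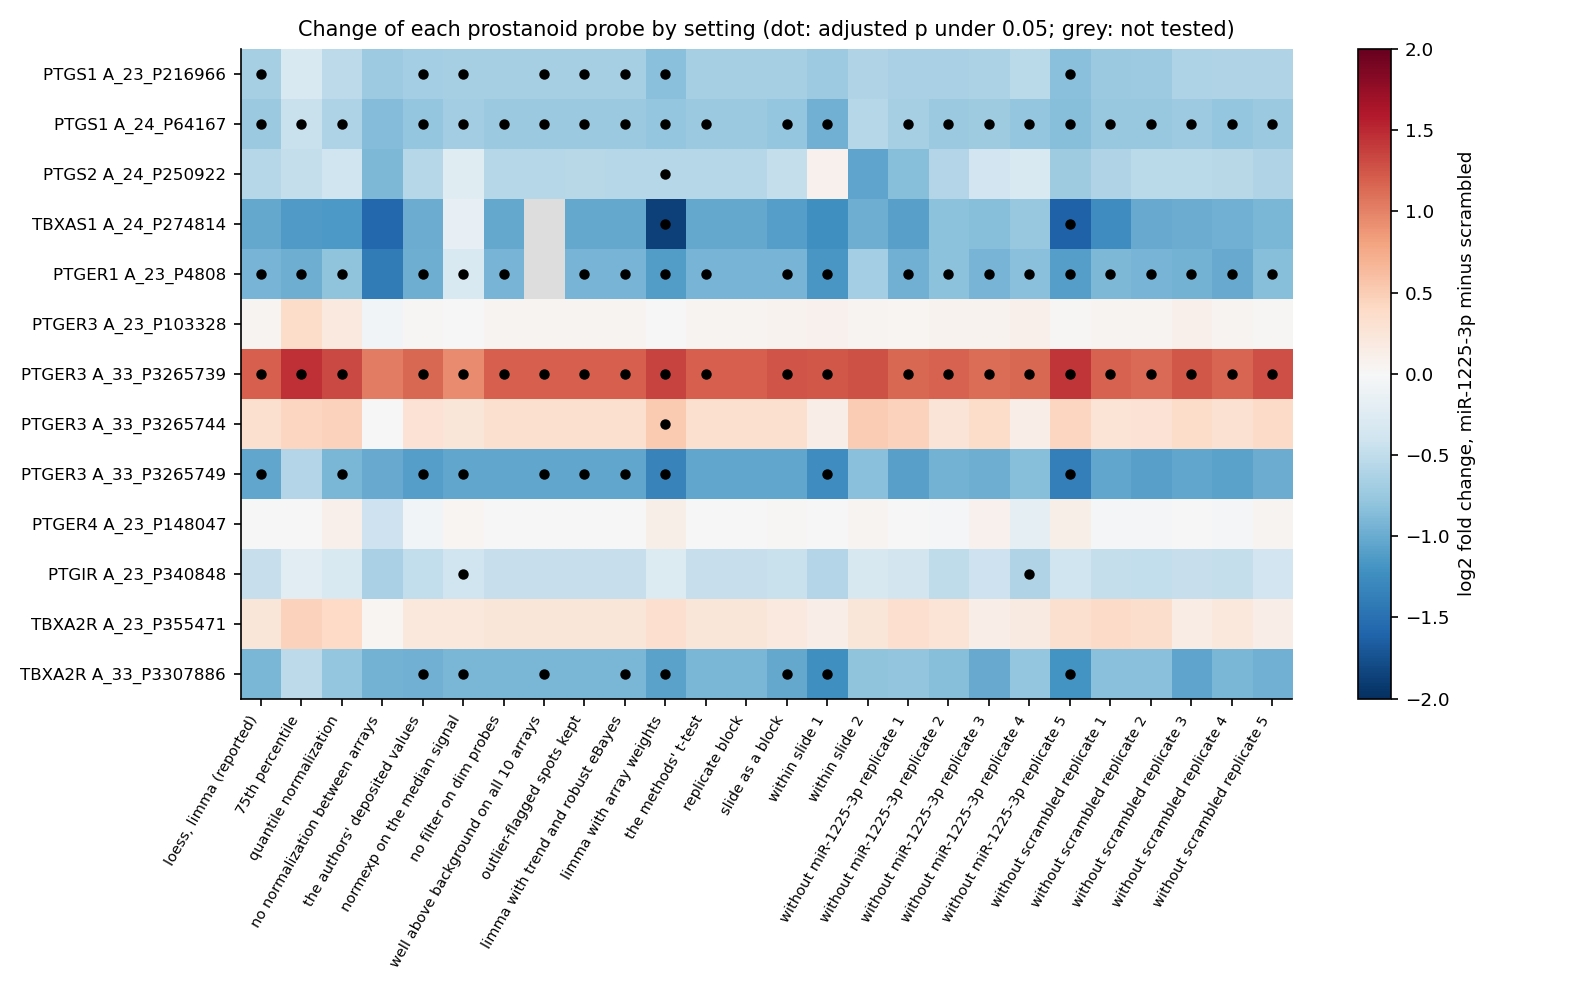
Log2 fold change (colour, blue lower and red higher with miR-1225-3p) of the 13 prostanoid probes in the reported comparison and under each alternative setting, with a dot where the adjusted p was under 0.05 and grey where the probe was not tested. PTGS1 A_24_P64167, PTGER1 and PTGER3 A_33_P3265739 carry dots nearly throughout, and without normalization between arrays, with the replicate block and within slide 2 no probe carries one.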

How the data were processed

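The authors deposited the scanner output of 10 single-colour arrays (Agilent Feature Extraction 10.7.3.1, per the file headers), whose processed signal, a background-subtracted intensity, comes with a flag per spot for outliers, saturation and being well above background. They also deposited normalized log2 values, which correlated with those computed here at 0.848 to 0.988 per array after centring each probe. The authors' table holds 29271 probes. No spot was saturated. Between 41.95% and 61.18% of spots were well above background.

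As in the methods, cyclic loess was applied here to the log2 of the processed signal, with 3 iterations of limma 3.58.1 under R 4.3.3. Control spots (4259) and outlier spots were dropped before averaging the spots of each probe. Accessions of 24910 of 42405 probes matched a symbol in RefSeq's table of GRCh38.p14. Groups were taken from the titles, with no covariate, and compared with limma (lmFit, eBayes). Single probes were also tested by exact permutation. Scripts were tested on simulated data. The members and lists were chosen with earlier results of these data known. All member probes found by accession are named, and of the lists the genes past the threshold with the largest change. Probes of these genes without a matched accession would be missed. Other list genes (such as HPGD, GNAI1 and GNA13) are named for their role, for a call that changed without replicate 5 or for probes that disagreed, and were chosen after their values were seen. Replicate numbers were not used as pairs, since correlations between arrays of the same number were low or negative (-0.40 to 0.06). Such correlations cannot show whether samples of the same number were handled together. Protein, 3' end and probe sequences were not used here, and seed matches were not tested.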

Additional observations from a re-analysis of the deposited data

Results flagged for a closer look

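In 6 of 32 groups of 5 arrays, over the 16 prostanoid probes, 1 array stood far from the other 4 (its gap over the whole range was above Dixon's critical value of 0.71), where chance gives about 1.6. For PTGER3 probe A_33_P3265739, miR-1225-3p replicate 5 read 8.31 against 9.31 to 9.56 on the others. For TBXAS1, scrambled replicate 1 read 4.21 against 5.13 to 5.51. For PTGIR, scrambled replicate 5 read 8.90 against 8.47 to 8.56. The other 3 were probes not tested for a change. PTGES read 4.88 on miR-1225-3p replicate 1 against 2.69 to 3.05. PTGER2 read 3.20 on miR-1225-3p replicate 2 against 2.68 to 2.82, and 3.61 on scrambled replicate 5 against 2.61 to 2.81. What set these arrays apart was not tested.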

How the results depend on the processing

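By limma, 5 prostanoid probes, 7225 of all probes and 16 pathway genes passed. The counts were 3, 8394 and 17 with scaling to the 75th percentile, 0, 1224 and 2 with no normalization between arrays, 3, 4014 and 10 with no filter on dim probes, 9, 14673 and 33 with array weights, 5, 5554 and 10 within slide 1, and 3, 5481 and 13 with the methods' t-test. Of its 3 prostanoid probes, PTGER3 probe A_33_P3265739 was the 1 past a 2-fold change, which the methods also asked for. Within slide 2 they were 0, 0 and 0 (1, 1395 and 2 at an unadjusted p under 0.05). Leaving out 1 array gave 3 to 7 prostanoid probes, 2280 (without miR-1225-3p replicate 2) to 11524 of all probes (without miR-1225-3p replicate 5) and 5 to 27 pathway genes, so that single arrays decided much of each count. Without normalization between arrays 3 prostanoid probes had an unadjusted p under 0.05. The split of calls was 1050 lower and 174 higher with no normalization and 3063 lower and 4132 higher with quantile normalization. The other settings kept the 3 counts within 1.5 times. The causes were not tested.

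The replicate number as a block gave 0, 0 and 0 (6, 8994 and 19 at an unadjusted p under 0.05). The titles do not say whether samples of the same number were handled together.

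Of the differences between PTGER3 probes, those of A_23_P103328, A_33_P3265739 and A_33_P3265744 against A_33_P3265749 were 0.96, 2.05 and 1.02 with scaling to the 75th percentile or no normalization, past the threshold in neither, and 0.96 to 1.38, 2.01 to 2.79 and 0.97 to 1.79 with 1 array left out. All 3 missed the threshold without scrambled replicate 1, 2, 4 or 5, and 2 of them without scrambled replicate 3 or miR-1225-3p replicate 4. Changes of direction were seen only for probes that did not pass: PTGER3 probe A_23_P103328 with no normalization (-0.0578), PTGS2 within slide 1 (0.0874), and PTGER4 with the 75th percentile (0.0132), quantile normalization (0.106), normexp (0.0347), array weights (0.125), the slide as a block (0.0252), within slide 2 (0.0547) and with 1 array left out (-0.19 to 0.12). Dim signals limit TBXAS1, PTGER1, PTGER2 and PTGES, and 5 arrays a group limit the rest.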
